A study of Mus musculus with 20 samples.

Results

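Amphiregulin (Areg), epiregulin (Ereg), heparin-binding EGF-like growth factor (Hbegf), betacellulin (Btc) and transforming growth factor alpha (Tgfa) are secreted ligands of the epidermal growth factor (EGF) receptor. They were taken by gene symbol as 5 of the 23090 genes counted in each library. Areg was chosen by its large rise with drug in both cell types of these same data, so its change with drug is given as a description with no test. The other 4 were taken as its family.

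The libraries hold poly-A RNA of myeloid cells sorted from subcutaneous tumours, in 4 groups of 5. Monocytic myeloid-derived suppressor cells (mMDSC, Ly6G negative) and granulocytic ones (gMDSC, Ly6G positive) were each taken from mice given the CBP/EP300 bromodomain inhibitor GNE-781 (CBPi-781 in the labels, CBPi here; 25 mg/kg BID by oral gavage for 7 days) and from mice given MCT vehicle. All mice were female SCID.beige, 6 to 8 weeks old, a strain without T, B or functional NK cells, and tumours were grown from MDA.MB.231-X1.1, of human breast cancer origin, or from CT26, a mouse colon carcinoma line; dosing began at a mean tumour volume of 150 to 200 mm3. The labels do not say which line, or which mouse, a library came from, so differences between the lines cannot be told apart from the groups, and p-values measure the spread between libraries, part of which may be technical. CBP and EP300 are acetyltransferases that bind acetylated histones through a bromodomain and act as coactivators of CREB and many other transcription factors. Totals ran from 12.37 to 26.64 M (mega-counts), and levels are CPM (counts of a gene over the library total in mega-counts) scaled by TMM over the 20 libraries. Ly6g, the gene behind the sorting marker of gMDSC, was low even there (0.973 ± 0.670 CPM in CBPi gMDSC and 5.21 ± 3.12 in vehicle gMDSC; SD, n = 5 each), and vehicle gMDSC library 5 had 0.438 CPM.

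EGF receptor ligands are made as membrane-bound precursors and are released when a metalloprotease, chiefly ADAM17, cuts them near the cell surface. The soluble ligand binds EGFR (ERBB1), which then pairs with itself or with another ErbB receptor and signals through adaptors such as GRB2 to the MAP kinase cascade. Areg and Tgfa bind EGFR alone, whereas Hbegf, Btc and Ereg also engage ERBB4. In immune tissue Areg is known chiefly from group 2 innate lymphoid cells, mast cells, basophils and regulatory T cells, where it is linked to tissue repair, and its promoter is a well-studied target of cAMP and CREB.

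The genes lie in 3 places of the genome (coordinates from RefSeq, GRCm38.p6). Areg (GeneID 11839) spans chr5:91139599-91148432. Ereg (GeneID 13874) spans chr5:91074617-91093649 and Btc (GeneID 12223) chr5:91357261-91402994, so these members share a cluster with Areg. Tgfa (GeneID 21802) spans chr6:86195038-86275744, while Hbegf lies apart from both.

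The 250 bases before the annotated start of Areg are shown because the motif that CREB binds, the cAMP response element, stands in them. Read on the plus strand from chr5:91139349-91139598, 5′ to 3′, capitals mark the full element TGACGTCA and a TATA box (TATAAA).
Areg promoter: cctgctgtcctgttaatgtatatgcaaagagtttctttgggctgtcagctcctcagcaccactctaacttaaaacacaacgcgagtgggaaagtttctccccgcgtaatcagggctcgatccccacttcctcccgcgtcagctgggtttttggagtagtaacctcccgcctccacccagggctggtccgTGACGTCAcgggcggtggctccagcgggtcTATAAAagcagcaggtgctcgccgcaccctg
The element begins 61 bases and the TATA box 31 bases before the start. A further match to the half-site TGACG, outside the full element, begins 115 bases before it. Among 32851 RefSeq promoters, each read from 250 bases before to 50 after the start, 1.79% held TGACGTCA (its own reverse complement), 20.8% held TGACG on either strand, which every full element also counts in, 8.32% held TATAAA on the gene's strand, and 7.81% held the AP-1 motif TGANTCA on either strand. Promoters of 3 of the 5 members were in the table (Areg, Btc and Tgfa). Areg alone of these 3 held the full element, Btc held a half-site 113 bases before its start, and no AP-1 match was in any of the 3 windows. These are matches of letters, not measured binding.

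Of 16 known cAMP and CREB target genes, 12 had a promoter in the table; the full element was in 2 of them, Dusp1 and Btg2, and a half-site in 11. Their elements are set beside that of Areg, each on its gene's own strand with the element in capitals.
Areg: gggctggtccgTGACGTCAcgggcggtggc
Dusp1: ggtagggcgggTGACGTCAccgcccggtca
Btg2: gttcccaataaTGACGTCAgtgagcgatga
They come from chr5:91139527-91139556 (plus strand), chr17:26508597-26508626 (minus) and chr1:134079303-134079332 (minus). The element begins 143 bases before the start of Dusp1 and 166 before that of Btg2.

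Areg was much higher with CBPi in both cell types. In CBPi mMDSC, libraries 6 to 10, Areg stood at 82.6, 75.1, 111, 134 and 112 CPM, against 1.08, 3.64, 3.50, 8.58 and 3.76 CPM in vehicle mMDSC, libraries 1 to 5. Every CBPi library was far above every vehicle library, the lowest at 75.1 CPM and the highest vehicle one at 8.58 CPM. The fitted log2 fold change was 4.64 ± 0.41 (SE), or 24.9-fold. In CBPi gMDSC, libraries 6 to 10, Areg stood at 31.7, 25.3, 20.6, 32.1 and 27.6 CPM, against 1.60, 1.44, 4.77, 3.18 and 0.219 CPM in vehicle gMDSC, libraries 1 to 5. Again the groups did not overlap, and vehicle library 5, the lowest of all, held 5 Areg reads. The log2 fold change in gMDSC was 3.69 ± 0.56 (SE), or 12.9-fold, and 4.52 with limma-voom. Over all genes tested, 9.77% in mMDSC and 12.2% in gMDSC had treatment groups that did not overlap, but nothing is read from this for Areg, which was selected on these contrasts. Fewer cells making a transcript and less transcript per cell cannot be told apart in sorted bulk RNA, here or below.

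**Figure D1:**
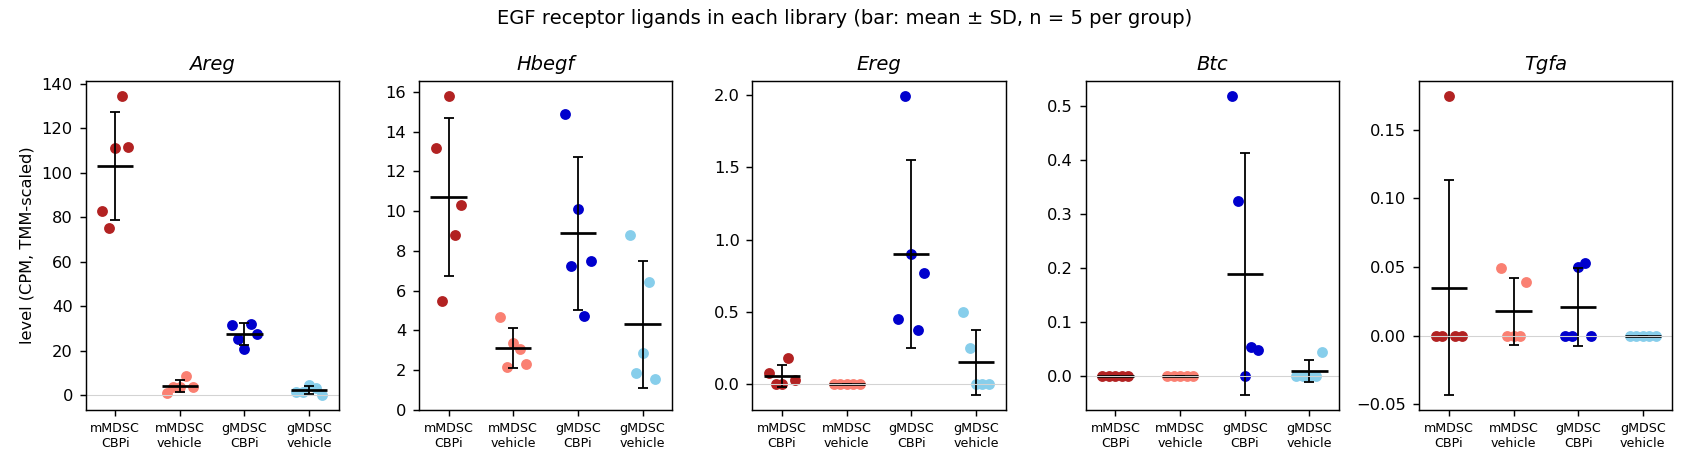
Level of each EGF receptor ligand in every library (y axis, CPM scaled by TMM, a separate linear scale for each gene; points, libraries; bars, mean ± SD, n = 5 per group). Areg averages 103 CPM in CBPi mMDSC and 4.11 CPM in vehicle mMDSC, and 27.5 CPM in CBPi gMDSC and 2.24 CPM in vehicle gMDSC, whereas no library reaches 2 CPM of Ereg or 1 CPM of Btc or Tgfa.

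Hbegf (GeneID 15200, chr18:36504927-36515805), which is also the receptor for diphtheria toxin in primates, was the only other member with more than traces in every library. In CBPi mMDSC it stood at 13.2, 5.46, 15.8, 8.82 and 10.3 CPM, against 4.66, 2.13, 3.37, 3.04 and 2.29 CPM in vehicle mMDSC. The lowest CBPi library lay just above the highest vehicle one, so the groups did not overlap. Hbegf rose by a log2 fold change of 1.78 ± 0.32 (SE), or 3.43-fold, with an adjusted p of 0.00433 (edgeR's quasi-likelihood test, Benjamini-Hochberg adjustment over 11912 genes), and the adjusted p was at most 0.0197 over the 15 alternative analyses. Of those genes 3.02% were called higher and 5.54% lower at an adjusted p under 0.05. In CBPi gMDSC, Hbegf stood at 14.9, 7.22, 10.1, 4.73 and 7.50 CPM, against 8.80, 1.86, 2.86, 6.45 and 1.53 CPM in vehicle gMDSC. Vehicle libraries 1 and 4 reached into the CBPi range. The log2 fold change of Hbegf in gMDSC, 1.11 ± 0.51 (SE), did not pass, with an adjusted p of 0.187 over 11694 genes and of 0.0881 to 0.391 in the alternatives; 4.18% of those genes were called higher and 5.52% lower.

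Ereg, Btc and Tgfa were near the limit of detection and missed the filter on low counts (a count of about 10 in at least as many libraries as the smaller group) in all 5 comparisons, whereas Areg and Hbegf passed it in all 5, the vehicle libraries alone included. A library with 3 reads of a gene would stand at 0.113 to 0.243 CPM, depending on its depth, and is the lowest level treated as detected; intervals and floors of this kind cover counting error only. Ereg had 7, 37, 18, 7 and 16 reads in CBPi gMDSC, against 5, 3, 0, 0 and 0 in vehicle gMDSC. It had 2, 0, 0, 5 and 1 reads in CBPi mMDSC, against none in any vehicle mMDSC library. Its reads were thus concentrated in CBPi gMDSC, 85 in sum, with 8 each in CBPi mMDSC and in vehicle gMDSC, although 1 vehicle gMDSC library at 0.50 CPM stood above the 2 lowest CBPi ones at 0.372 and 0.453 CPM. Fitted without the filter, the log2 fold change of Ereg in gMDSC was 2.64 ± 1.24 (SE) and did not pass by edgeR's quasi-likelihood test (adjusted p = 0.227; 0.0669 to 0.412 in its alternatives). In mMDSC no fold can be given for Ereg, since the vehicle group had no read and no more than 1 CBPi library exceeded 3 reads.

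Btc had 8, 6, 0, 1 and 1 reads in CBPi gMDSC, against 1 read in vehicle gMDSC library 5 and none in the other 4, and no read in any of the mMDSC libraries. Most of these reads came from CBPi gMDSC libraries 6 and 7, and without the filter the difference from vehicle did not pass (edgeR's quasi-likelihood test, adjusted p = 0.190; 0.168 to 0.358 in its alternatives). Tgfa had 4 reads in 1 CBPi mMDSC library, 1 read in each of 2 CBPi gMDSC and 2 vehicle mMDSC libraries, and none in vehicle gMDSC. At this depth a difference in Tgfa was not detectable.

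Between cell types, a contrast that did not itself choose the members, gMDSC and mMDSC differed in Areg under CBPi. The CBPi libraries compared are those whose rise over vehicle chose Areg, so the test is not independent of that choice. The 5 CBPi gMDSC libraries, at 20.6 to 32.1 CPM, all lay below the 5 CBPi mMDSC libraries, at 75.1 to 134 CPM. Areg was lower in CBPi gMDSC than in CBPi mMDSC by a log2 fold change of -1.85 ± 0.18 (SE), or 3.61-fold, with an adjusted p of 4.86e-06 (edgeR's quasi-likelihood test), and this call was kept in all 16 alternatives, the highest adjusted p being 0.00244. In that comparison 20.1% of 11895 genes were called higher and 19.1% lower in gMDSC, and 29.9% had groups that did not overlap. Without drug, vehicle gMDSC at 0.219 to 4.77 CPM overlapped vehicle mMDSC at 1.08 to 8.58 CPM. The log2 difference there was -0.89 ± 0.71 (SE; adjusted p = 0.433, and 0.184 to 0.757 in the alternatives), in a comparison where 13.6% of 11576 genes were called higher in gMDSC, 8.08% were called lower and 20.2% did not overlap.

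The difference of the drug responses, gMDSC minus mMDSC, was -0.97 ± 0.67 (SE) on the log2 scale for Areg (interaction term over 20 libraries), given without a test because it is made of the responses that chose Areg. That term called 0.725% of 12688 genes at an adjusted p under 0.05 by edgeR's quasi-likelihood test. The levels of Areg ran, from high to low, CBPi mMDSC, CBPi gMDSC, vehicle mMDSC and vehicle gMDSC, of which the last 2 did not differ beyond their spread.

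Hbegf was not called between the cell types. It averaged 8.89 ± 3.86 CPM in CBPi gMDSC and 10.7 ± 3.99 CPM in CBPi mMDSC (SD, n = 5 each), a log2 difference of -0.22 ± 0.33 (SE) with an adjusted p of 0.648 by edgeR's quasi-likelihood test. In vehicle it averaged 4.30 ± 3.18 CPM in gMDSC and 3.10 ± 1.02 CPM in mMDSC (log2 difference 0.47 ± 0.53 SE, adjusted p = 0.594). Its drug responses differed by -0.73 ± 0.62 (SE, gMDSC minus mMDSC), which did not pass (adjusted p = 0.717).

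Ereg ran the other way from Areg between cell types under CBPi. It was higher in CBPi gMDSC (0.898 ± 0.650 CPM) than in CBPi mMDSC (0.0577 ± 0.0751 CPM; SD, n = 5 each), and no library of one group reached into the other. Without the filter on low counts its log2 fold change was 3.87 ± 1.10 (SE), with an adjusted p of 0.0157 by edgeR's quasi-likelihood test (0.000294 to 0.0537 in its alternatives). The call rested on CBPi gMDSC library 7, with 37 of the 85 reads: without it the log2 fold change was 3.36 and the adjusted p 0.0537. Without CBPi mMDSC library 9, which held 5 of that group's 8 reads, the log2 fold change was 4.82. Btc, with 16 reads in CBPi gMDSC and none in CBPi mMDSC, had an adjusted p of 0.0297 in the same comparison without the filter (edgeR's quasi-likelihood test; 0.0148 to 0.0758 in its alternatives); no fold is given against a group without a read. The Btc call was lost with DESeq2 (0.0758) and without CBPi gMDSC library 6 (0.0688) or 7 (0.0592) or CBPi mMDSC library 9 (0.0514) or 10 (0.0518).

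Levels of different genes were compared by the deposited RPKM (reads scaled to the library total and to the length of the gene model). Areg made up 88.8 ± 3.96% of the summed RPKM of the 5 ligands in CBPi mMDSC and 49.9 ± 20.7% in vehicle mMDSC. In CBPi gMDSC its share was 69.4 ± 9.31%, against 29.2 ± 19.5% in vehicle gMDSC (SD, n = 5 each). The RPKM of Areg was 8.91 ± 3.34 times that of Hbegf in CBPi mMDSC and 1.25 ± 0.80 times in vehicle mMDSC, and 3.04 ± 1.61 times in CBPi gMDSC and 0.547 ± 0.522 times in vehicle gMDSC. With CBPi, Areg was thus the leading transcript of the 5 in all 10 libraries. In vehicle mMDSC it shared that place with Hbegf, and in vehicle gMDSC Hbegf led in every library except library 3. These shares follow from the change that chose Areg and are a description.

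The cluster on chromosome 5 that holds Areg, Ereg and Btc also holds epigen (Epgn), a further EGF receptor ligand, and the CXC chemokines that attract neutrophils. In all, 13 other genes lay within 500 kb of Areg; 6 of them were tested in mMDSC and 5 in gMDSC. In mMDSC 4 of 6 rose, against 3.02% of all genes, and none fell. They were Pf4 (platelet factor 4; log2 fold change 1.84 ± 0.31 SE), Cxcl3 (1.73 ± 0.33), Cxcl1 (1.40 ± 0.21) and Cxcl2 (1.09 ± 0.27), with adjusted p-values of 0.00261, 0.00577, 0.00139 and 0.0257 by edgeR's quasi-likelihood test. The call of Cxcl2 was lost without CBPi mMDSC library 6 (adjusted p = 0.0506) or 8 (0.0545) or vehicle mMDSC library 2 (0.0720), 3 (0.0509) or 5 (0.0531), and in one fit over all 20 libraries (0.0645). Ppbp (1.78 ± 0.86) and the mitochondrial folate enzyme gene Mthfd2l (0.97 ± 0.61) did not pass.

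In gMDSC 2 of the 5 tested neighbours rose, Cxcl3 (log2 fold change 3.48 ± 0.40 SE, adjusted p = 0.000255) and Cxcl1 (1.26 ± 0.22, adjusted p = 0.00449), against 4.18% of all genes. Cxcl3, a ligand of the chemokine receptor CXCR2, averaged 777 ± 436 CPM in CBPi gMDSC and 71.8 ± 33.7 CPM in vehicle gMDSC (SD, n = 5 each). Mthfd2l (1.56 ± 0.79), Cxcl2 (0.62 ± 0.34) and Pf4 (0.33 ± 0.28) did not pass in gMDSC, although without vehicle gMDSC library 3 Cxcl2 (adjusted p = 0.0291) and Pf4 (0.0133) passed too, making 4. Responses of Cxcl3 (1.68 ± 0.52, gMDSC minus mMDSC; adjusted p = 0.167) and Pf4 (-1.56 ± 0.44; adjusted p = 0.115) did not pass the test of a difference between cell types, though both passed it with DESeq2 (adjusted p = 0.0407 and 0.0338). Epgn, which lies between Mthfd2l and Ereg, had 15, 10, 8, 10 and 5 reads in CBPi gMDSC, against 3, 1, 0, 0 and 0 in vehicle gMDSC, and 2 reads in CBPi mMDSC in all, against none in vehicle mMDSC. Epgn and Ereg thus had most of their few reads in the same group. Of the 13 neighbours 11 had a promoter in the RefSeq table; none held the full element TGACGTCA and 3 held a half-site, Cxcl1 among them with matches 215 and 194 bases before its start.

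**Figure D2:**
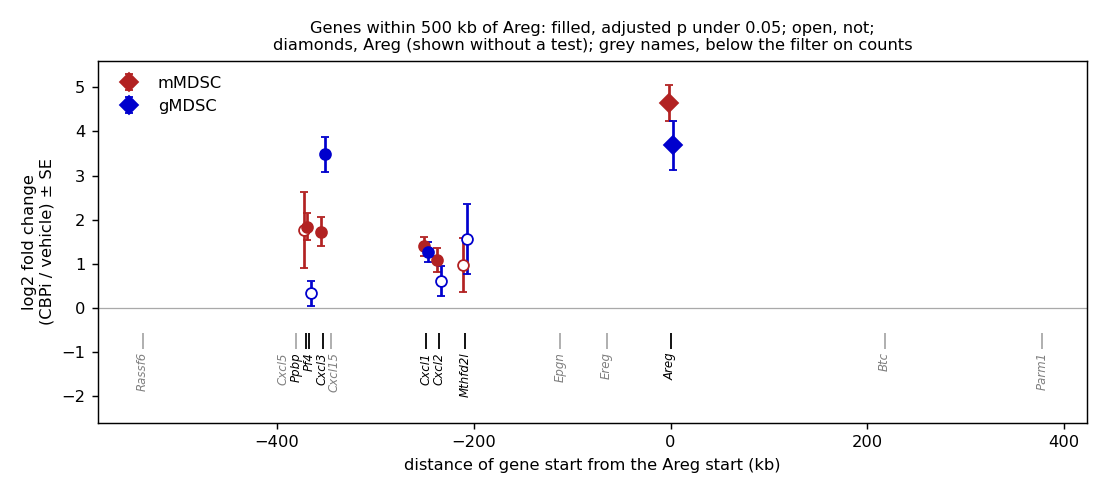
Log2 fold change (y axis, CBPi over vehicle, ± SE) of genes around Areg by the distance of their start from that of Areg (x axis, kb). Filled circles passed an adjusted p of 0.05 and open ones did not, diamonds show Areg without a test, and grey names missed the filter on counts; Areg stands at 4.64 in mMDSC and 3.69 in gMDSC, Cxcl1 at 1.40 and 1.26, and the genes directly beside Areg were too low to test.

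Transcripts of the receptors for these ligands were sparse. Of the 4 ErbB receptors Erbb3 alone passed the filter, and its log2 fold change with CBPi did not pass (0.57 ± 0.67 SE in mMDSC and 0.81 ± 1.10 in gMDSC). Egfr, the receptor that Areg binds, was at most 1.82 CPM in any library. Erbb2, the co-receptor without a ligand of its own, was at most 0.60 CPM, and Erbb4 had no read in any of the 20 libraries. Of 6 other ligands of the EGF family, Nrg1 (neuregulin 1, a ligand of ERBB3 and ERBB4) was the most abundant. It averaged 28.7 ± 6.44 CPM in CBPi mMDSC and 31.2 ± 15.8 CPM in vehicle mMDSC, and 12.8 ± 7.51 CPM in CBPi gMDSC and 5.88 ± 4.06 CPM in vehicle gMDSC. Neither drug comparison passed for Nrg1 (adjusted p = 0.828 in mMDSC and 0.144 in gMDSC). Like Areg, Nrg1 was lower in gMDSC than in mMDSC under CBPi (log2 fold change -1.11 ± 0.31 SE, adjusted p = 0.0124), and unlike Areg it also passed in vehicle (-2.42 ± 0.47, adjusted p = 0.00224).

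Few genes for the release of the ligands passed the test. Of 11 such genes, 9 were tested in mMDSC; none rose and 1 fell, where 3.02% of all genes were called higher and 5.54% lower, with a list median log2 fold change of -0.02 against 0.01 over all genes. Adam17, the main sheddase of Areg and Hbegf, had a log2 fold change of -0.66 ± 0.19 (SE) in mMDSC (adjusted p = 0.0547) and of -0.02 ± 0.21 in gMDSC (adjusted p = 0.964); in mMDSC it passed with DESeq2 (adjusted p = 0.0184), without CBPi library 7 (0.0409) and without vehicle library 4 (0.0111), and did not in the other 12 alternatives (0.0111 to 0.125 over all). Adam10, which sheds Btc, stood at -0.02 ± 0.28 in mMDSC and 0.17 ± 0.37 in gMDSC, and Rhbdf2, which carries ADAM17 to the cell surface, at -0.31 ± 0.23 and 0.17 ± 0.26.

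The gene that fell in mMDSC was Adam19, a metalloprotease that can cut neuregulins. It had 0.627, 2.59, 1.22, 1.33 and 0.838 CPM in CBPi mMDSC, against 9.18, 13.1, 7.94, 8.15 and 13.4 CPM in vehicle mMDSC. The groups were wide apart, and the log2 fold change was -2.97 ± 0.39 (SE; adjusted p = 0.000489 by edgeR's quasi-likelihood test). In gMDSC Adam19 averaged 18.6 ± 7.48 CPM with CBPi and 20.5 ± 9.69 CPM with vehicle, and the responses differed between cell types (2.82 ± 0.55 SE, gMDSC minus mMDSC; adjusted p = 0.0176). In gMDSC 10 of the 11 genes were tested, 1 rose and none fell, where 4.18% of all genes were called higher and 5.52% lower. Adam8 rose by a log2 fold change of 1.23 ± 0.30 (adjusted p = 0.0236), a call lost without CBPi gMDSC library 7 (adjusted p = 0.0653) or vehicle gMDSC library 1 (0.0543). Under CBPi, gMDSC had higher levels than mMDSC of 4 of 10 tested genes, Adam17, Adam19, Adam8 and Rhbdf2, and a lower level of 1, Adam15, in a comparison where 20.1% of all genes were called higher and 19.1% lower.

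Of 16 adaptors and negative regulators downstream of the receptor, 1 of 15 tested rose in mMDSC and 1 of 14 in gMDSC, where 3.02% and 4.18% of all genes were called higher, so that the counts stand near the background. It was Errfi1 in both. Errfi1 encodes MIG6, a feedback inhibitor that binds the kinase domain of EGFR. Its levels were 98.3, 91.8, 101, 128 and 105 CPM in CBPi mMDSC, against 47.4, 40.3, 50.9, 68.0 and 44.4 CPM in vehicle mMDSC, and the groups did not overlap. Its log2 fold change was 1.05 ± 0.15 (SE; adjusted p = 0.00115 by edgeR's quasi-likelihood test). In CBPi gMDSC Errfi1 stood at 268, 147, 126, 117 and 119 CPM, against 43.6, 38.7, 47.1, 42.8 and 59.6 CPM in vehicle gMDSC, again without overlap (1.78 ± 0.24 SE, adjusted p = 0.000827). Its responses were not shown to differ between cell types (0.68 ± 0.29, adjusted p = 0.365). The other 14 tested in mMDSC and 13 in gMDSC did not pass; in mMDSC Gab1 and Lrig2 passed as well without CBPi library 8 (adjusted p = 0.0290 and 0.0140). The adaptor Grb2 stood at -0.34 ± 0.11 in mMDSC (adjusted p = 0.0842) and -0.49 ± 0.15 in gMDSC (adjusted p = 0.0584).

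Because the Areg promoter holds a cAMP response element and the drug binds the coactivators of CREB, 16 known cAMP and CREB target genes were read beside it. The part of CREB or of this element in the change of Areg was not tested. The list was chosen with earlier results of these data known, so its counts and medians are a description. In mMDSC 7 of 16 rose and none fell, where 3.02% of all genes were called higher and 5.54% lower. The list median log2 fold change was 0.61 against 0.01 over all genes. Gem, a small GTPase that inhibits calcium channels, rose by 2.13 ± 0.32 (SE; adjusted p = 0.00122), the immediate-early factor Egr1 by 1.55 ± 0.24 (0.00154) and Ptgs2, which encodes the prostaglandin synthase COX-2, by 1.32 ± 0.21 (0.00221), all by edgeR's quasi-likelihood test. The others were Nr4a1, Nr4a2, Nr4a3 and Fosb, at 0.64 to 1.20. In gMDSC 6 rose and 1 fell, where 4.18% of all genes were called higher and 5.52% lower, with a median of 0.54 against 0.00 over all genes. Ptgs2 rose by 1.77 ± 0.27 (adjusted p = 0.00200), the nuclear receptor Nr4a2 by 1.20 ± 0.25 (0.0102) and Egr1 by 1.11 ± 0.26 (0.0194), and the phosphodiesterase gene Pde4d fell (-1.36 ± 0.33, adjusted p = 0.0219). The gMDSC count of 6 was 2 without CBPi library 7 and 3 without CBPi library 6 or 10 or vehicle library 2 or 5.

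Of the 12 genes of that list whose promoter was searched, the 2 that hold the full element missed the threshold. The rest of the 16 were not searched for it. Dusp1 (0.57 ± 0.18 in mMDSC and 0.69 ± 0.21 in gMDSC) and Btg2 (0.35 ± 0.21 and 0.14 ± 0.22), did not pass in either cell type (adjusted p of 0.0555 to 0.741). Crem, whose short isoform represses cAMP targets, stood at 0.33 ± 0.23 and 0.47 ± 0.27 and did not pass either. No gene of the 16 passed the test of a difference in response between cell types by edgeR's quasi-likelihood test; 3 had an unadjusted p under 0.05 (Gem, Per1 and Pde4d), and 2 passed with DESeq2 (Per1 and Pde4d).

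**Figure D3:**
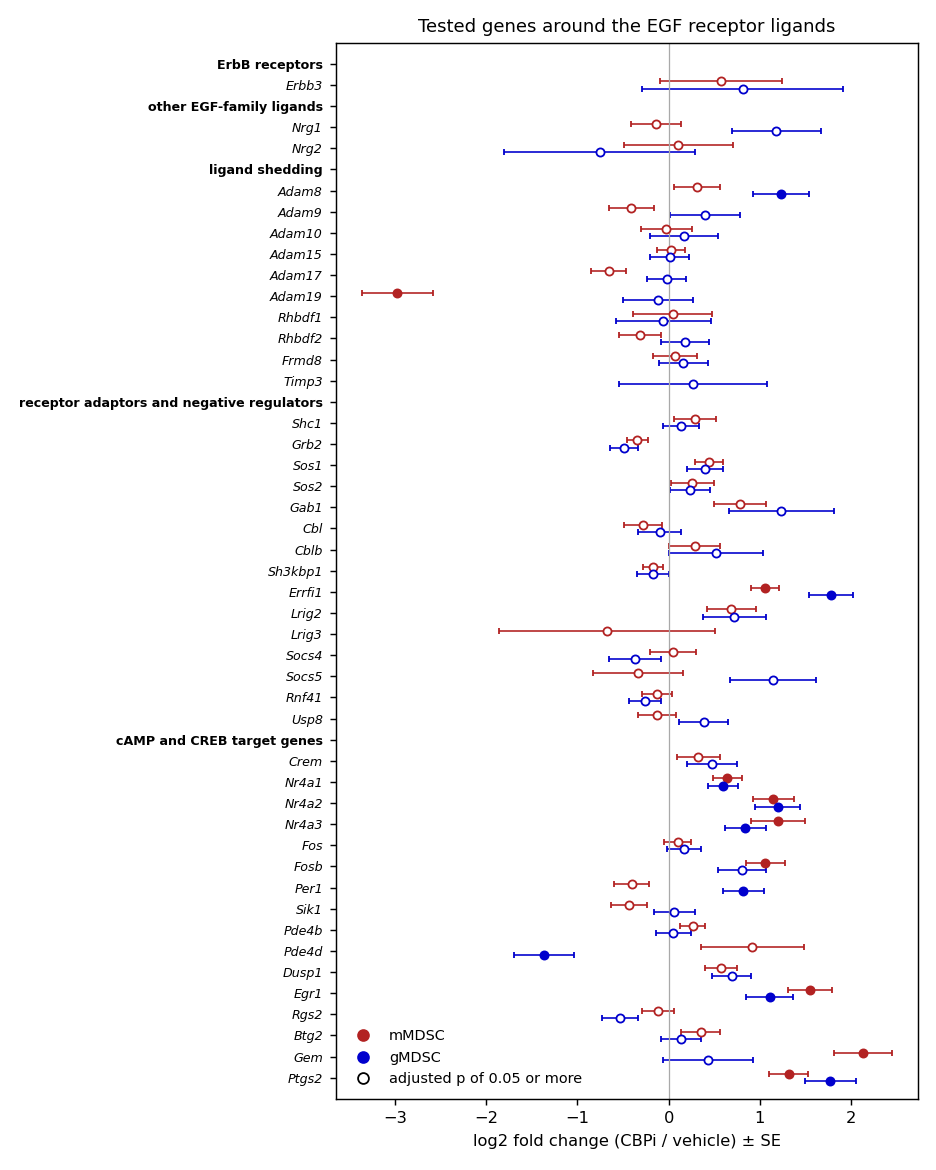
Log2 fold change (x axis, CBPi over vehicle, ± SE) of every tested gene of the 5 lists around the EGF receptor ligands, with mMDSC in red and gMDSC in blue. Filled points passed an adjusted p of 0.05; most points of the receptor, shedding and adaptor lists are open, Errfi1 is filled in both cell types, and the filled points of the cAMP and CREB list lie above 0 except Pde4d in gMDSC.

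The gene whose level was most like that of Areg was Cxcl1, its neighbour on chromosome 5. Pearson's r of log2 CPM was taken over the 20 libraries for 8488 genes averaging at least 10 CPM in 1 group; the points share the library scaling, and the 4 groups pull apart, so r is a description with no test. For Cxcl1 r was 0.962. Cxcl1 stood at 193 to 300 CPM in CBPi mMDSC and 56.6 to 145 CPM in vehicle mMDSC, and at 144 to 222 CPM in CBPi gMDSC and 42.8 to 98.6 CPM in vehicle gMDSC. The next were Atp1b3 (r = 0.922), Maged1 (0.890), Uck2 (0.857), Ifit1bl1 (0.856), Rras2 (0.848), Appl2 (0.827) and 2610002M06Rik (0.824). With the group means removed, so that only the differences among libraries of one group remained, Cxcl1 was still among the 8 highest (r = 0.827), whereas Atp1b3 had 0.177 and Maged1 -0.448. The 7 genes above Cxcl1 in that order were Cd14, Nfkbia, Ncf4, Pcnp, Dusp2, Il1b and Tmem161b, at 0.828 to 0.858. These r values pool the 4 groups and were not taken within each. Areg spread most in proportion to its level in vehicle, at 22 to 161 reads in mMDSC and 5 to 50 in gMDSC. In vehicle mMDSC both Areg and Cxcl1 were highest in library 4, and in vehicle gMDSC both were lowest in library 5. With CBPi, Areg was highest in library 9 of both cell types, but Cxcl1 in mMDSC library 8 and gMDSC library 6. Hbegf had an r of 0.731 with Areg over the 20 libraries and of 0.166 with group means removed.

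**Figure D4:**
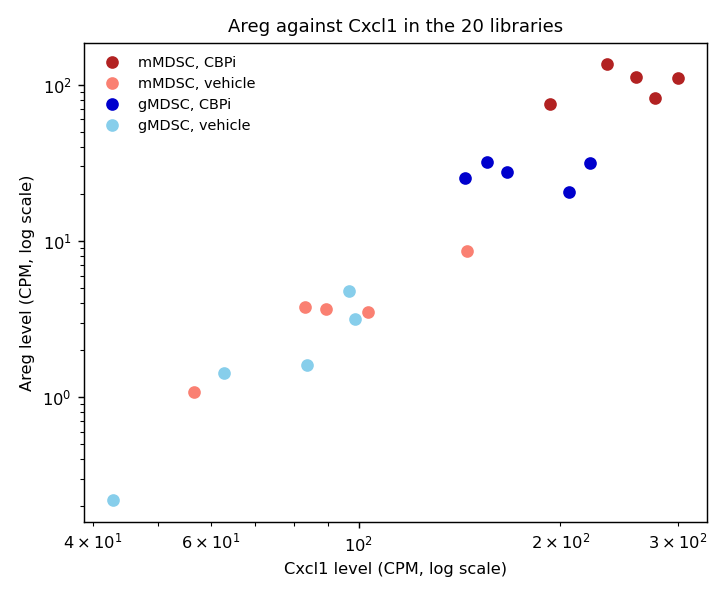
Areg level (y axis) against Cxcl1 level (x axis) in each of the 20 libraries, both in CPM on log scales, coloured by group. Both genes are lowest in vehicle gMDSC library 5, at 0.219 CPM of Areg and 42.8 CPM of Cxcl1, and the CBPi mMDSC libraries hold the 5 highest Areg values.

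Markers of the other cells that are known sources of Areg, Hdc aside, summed to less than Areg itself in the CBPi groups. In vehicle their sums reached into or above the range of Areg, which was 1.08 to 8.58 CPM in mMDSC and 0.219 to 4.77 CPM in gMDSC. The basophil and mast cell genes Fcer1a, Ms4a2 and Prss34, and Il5, Il13 and Foxp3 of innate lymphoid and T cells, had no read in any of the 20 libraries. The 8 basophil and mast cell markers other than Hdc, which neutrophils also express, summed to 0.313 to 2.53 CPM in CBPi mMDSC and 0.310 to 3.68 CPM in vehicle mMDSC, and to 0.384 to 4.21 CPM in CBPi gMDSC and 0 to 1.18 CPM in vehicle gMDSC. The 8 markers of innate lymphoid and T cells summed to 2.58 to 7.36 CPM in CBPi mMDSC and 5.06 to 12.6 CPM in vehicle mMDSC, and to 1.81 to 5.48 CPM in CBPi gMDSC and 0.442 to 10.8 CPM in vehicle gMDSC. The part of such cells in the values of Areg was not tested.

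Epithelial cells also make these ligands, and 1 of 5 tested epithelial markers fell with CBPi in mMDSC and 2 of 5 in gMDSC. Over all genes tested, 5.54% were called lower in mMDSC and 5.52% in gMDSC. The 7 markers summed to 3.90 to 12.3 CPM in CBPi mMDSC and 6.93 to 14.97 CPM in vehicle mMDSC, and to 6.78 to 12.8 CPM in CBPi gMDSC and 24.2 to 60.0 CPM in vehicle gMDSC. The sums overlapped in mMDSC and did not in gMDSC. Krt8 fell in both cell types and Krt18 in gMDSC; Cdh1 stood at 0.49 ± 0.44 on the log2 scale in gMDSC and did not pass. Eosinophil markers summed to 16.8 to 23.9 CPM in CBPi gMDSC and 62.2 to 95.4 CPM in vehicle gMDSC, and to 0.217 to 2.90 CPM in CBPi mMDSC and 2.61 to 7.36 CPM in vehicle mMDSC. Of the genes behind the sorting gates, 4 of 5 tested fell with CBPi in mMDSC (Ly6c1, Ly6c2, Adgre1 and Ptprc). In gMDSC 2 of 6 fell (Ly6c1 and Ly6c2), and none rose in either cell type. Of 6 monocyte markers, Ccr2 and Ly6c2 fell in both cell types. F13a1 rose in gMDSC (log2 fold change 3.36 ± 0.52 SE), where 4.18% of all genes were called higher. The 6 markers summed to 1796 to 2435 CPM in CBPi gMDSC and 1786 to 3668 CPM in vehicle gMDSC. In mMDSC they summed to 4133 to 5428 CPM with CBPi and 5713 to 6808 CPM with vehicle. Under CBPi 5 of the 6 were called lower in gMDSC than in mMDSC, in a comparison where 19.1% of all genes were called lower. Csf1r, at 1716 ± 255 CPM (SD) in CBPi gMDSC, was not (-0.24 ± 0.17 SE). Neutrophil markers had a median sum of 7839 CPM in CBPi gMDSC and 16340 CPM in vehicle gMDSC, and the sums overlapped. In mMDSC their median sum was 239.5 CPM with CBPi and 341.8 CPM with vehicle, and the sums did not overlap. Of the 6 neutrophil markers, 1 fell with CBPi in each cell type, Cxcr2 in gMDSC and Mmp8 in mMDSC, and none rose. Stromal and endothelial markers had a median sum of 229.5 CPM in CBPi mMDSC and 141.3 CPM in vehicle mMDSC. In gMDSC their median sum was 264.8 CPM with CBPi and 188.6 CPM with vehicle. No tested stromal or endothelial marker was called with CBPi in either cell type. The part of these cells and shifts in the values of Areg and Hbegf was not tested.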

How the data were processed

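Poly-A RNA of 20 sorted samples was sequenced with TruSeq V2 libraries; per the submitters' processing notes reads were aligned with GSNAP to GRCm38. How genes were counted (program, gene models, strand) is not given in the sources used here. The authors deposited, per gene, whole-number counts, a width and an RPKM value; counts were used for all tests, and the deposited RPKM only to compare genes. Of 23090 IDs, 21647 matched a RefSeq symbol (GRCm38.p6).

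Counts were tested with edgeR 4.0.16 (quasi-likelihood test, TMM, filterByExpr with minimum count 10 and minimum total 15, Benjamini-Hochberg threshold 0.05) over all genes, separately for each comparison; DESeq2 1.42.0 and limma-voom (limma 3.58.1) were alternatives, with no filter, one fit over all libraries, DESeq2 size factors, a replicate block and leaving out each library. A standard error is the log2 fold change divided by the square root of F. The scripts were tested on simulated data. Named genes were all members, up to 3 called genes per list with the smallest adjusted p, fixed receptors and sheddases, tested neighbours within 500 kb, and the 8 genes most like Areg (log2 of CPM plus 0.5); other called genes were named after their values were seen. Members and lists were chosen with earlier results of these data known.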

Additional observations from a re-analysis of the deposited data

Results flagged for a closer look

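In groups of 5 libraries, a library was singled out where its gap to the nearest other, divided by the range of the group, exceeded 0.71. For normally spread values chance alone does this in about 1 in 20 groups, a rate that does not hold for counts near 0. Where 4 libraries are at 0 and 1 is not, the rule is always met. Btc in vehicle gMDSC was picked because 1 library stood at 0.0438 CPM, from 1 read, and the other 4 were at 0. Tgfa in CBPi mMDSC was picked because library 8 stood at 0.175 CPM, from 4 reads, and the other 4 were at 0. No group of Areg, Hbegf or Ereg held such a library. Adam19 responded differently to CBPi in the 2 cell types, with a log2 difference of 2.82 (gMDSC minus mMDSC) that passed the interaction test (adjusted p = 0.0176; at most 0.0459 in the 25 alternatives).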

How the results depend on the processing

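Areg and Hbegf in all 5 comparisons, and Ereg and Btc in CBPi against vehicle gMDSC, kept their direction in every alternative run, and the tested ones also their side of the threshold; Areg ran at log2 fold changes of 4.40 to 5.09 in mMDSC and 3.37 to 4.52 in gMDSC (limma-voom gave the highest), and at 3.37 to 4.19 in gMDSC with 1 library left out in turn. Ereg, higher in CBPi gMDSC than in CBPi mMDSC, ran from 3.36 to 4.82 with 1 library left out and lost its call without CBPi gMDSC library 7. Btc in that comparison lost its call with DESeq2 (fitted log2 value 4.90) and ran from 4.43 to 5.49 with 1 library left out; these are no bounds, since CBPi mMDSC had no Btc read. Of 4314 recomputed values for 247 results on list genes and neighbours, 4188 kept their side of the threshold, 47 gained a call and 79 lost one. Values that stayed short of the threshold could still switch direction, as Adam10 did in mMDSC (log2 fold change -0.184 to 0.194 with CBPi). Counts of genes called moved more, and the cause was not tested. In mMDSC the 1020 genes became 1738 with DESeq2 and 638 in one fit over all 20 libraries. In gMDSC the 1135 became 2056 with DESeq2, 2182 in one fit over all libraries and 587 to 1394 with 1 library left out, the fewest without CBPi library 7. For the interaction the 92 became 302 with DESeq2, 52 with the replicate block and 34 to 111 with 1 library left out; Cxcl3 passed that term with the replicate block (adjusted p = 0.0474). Same-numbered libraries of the 2 cell types correlated at -0.0227 to 0.133 in their deviations from the group means, with 1 of 10 pairs over 0.1, and 4 of 10 correlated best with their own number, so the numbers were not taken as pairs. Depth limits Ereg, Btc and Tgfa, whose levels rest on few reads.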

Other observations

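Receptor transcripts were uneven among libraries of one group. Erbb3 had 52, 48, 59, 69 and 104 reads in CBPi gMDSC, against 0, 78, 1, 0 and 73 in vehicle gMDSC, so 2 vehicle libraries held nearly all of that group's reads. It had 157, 211, 78, 162 and 218 reads in CBPi mMDSC, against 74, 178, 31, 1 and 186 in vehicle mMDSC. Egfr had 1, 50, 0, 0 and 44 reads in CBPi mMDSC, against 0, 0, 0, 3 and 2 in vehicle mMDSC, and 26, 4, 1, 0 and 1 in CBPi gMDSC, against 0, 0, 0, 1 and 1 in vehicle gMDSC. CBPi libraries 7 and 10 of mMDSC and 6 of gMDSC thus held most of the Egfr reads.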
